A study of Mus musculus with 54 samples.

Results

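The immunoglobulin genes described here were the mouse genes whose symbols mark a heavy, kappa or lambda chain variable (V), joining (J) or constant gene and that held at least 50 reads summed over the 36 libraries of the CD5/CD6 experiment. Of 55385 listed genes, 395 matched the symbol rule. Of these, 117 had no read, 101 had between 1 and 49 reads with 1299 reads in all, and 177 were kept. The 177 members were 74 heavy chain V genes (IGHV), 79 kappa V genes (IGKV), 3 lambda V genes (IGLV), 4 heavy chain J genes, 4 kappa J genes, 1 lambda J gene and 12 constant genes. Igkv14-130 (48 reads) and Igkv8-18 (47 reads) lay just outside the limit, and Igkv5-45 (50 reads), Ighv3-5 (51 reads) and Ighe (52 reads) lay just inside it. Together the members held 876055 reads in the CD5/CD6 experiment and 261929 reads in the LAT experiment, in which 124 of them had no read. The working name of the set was residual B cell RNA. That name went against the measurements of Ighm, the heavy chain constant gene with most reads. Ighm stood at 713 to 1146 CPM in sorted unstimulated libraries with the kappa light chain constant gene Igkc at 0 to 9.10 CPM. Of 16 B cell genes, 11 were at 0.665 CPM or less in all 18 sorted libraries, while the others reached up to 54.4 CPM (Ralgps2). The members are therefore called by their genes below. CPM is the standard scaling of a read count to the library's reads assigned to genes, here after that total was multiplied by the library's TMM factor, which evens out differences in RNA composition (0.890 to 1.17 in the CD5/CD6 and 0.876 to 1.07 in the LAT experiment).

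Antibodies are built from heavy and light chains, and in B cells each chain gene is assembled by joining a V segment to a J segment (with a D segment between them in heavy chains) ahead of the constant gene. Naive B cells make heavy chains with the Ighm and Ighd constant genes, whereas switched B cells and plasma cells use Ighg, Igha or Ighe genes. Unrearranged constant genes can also be transcribed in lymphoid cells, which yields sterile RNAs with constant exons but no V segment. Conventional CD4+ T cells rearrange T cell receptor genes and do not make antibody.

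The J genes are printed because a complete chain carries exactly such a segment and because their members followed different courses over time. Coordinates and sequences are those of GRCm38 with GENCODE M21, the heavy and lambda genes being on the minus strand and the kappa genes on the plus strand. Capitals mark the letters around the conserved Trp-Gly or Phe-Gly turn of the joining segment, searched as TGGGGNNNNGGNAC in heavy and TTCGGNNNNGGNAC in light chain genes, which 9 of 9 J members hold in the printed direction. At 38 to 54 bases they are about as short as the 50-base reads. The first 150 bases of Ighm and Igkc, the constant genes on which the comparisons turn, are printed below them in lower case only.
Ighj1, chr12:113429781-113429833: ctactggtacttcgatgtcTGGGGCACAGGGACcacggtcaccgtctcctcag
Ighj2, chr12:113429468-113429515: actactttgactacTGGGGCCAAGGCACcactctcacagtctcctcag
Ighj3, chr12:113429085-113429132: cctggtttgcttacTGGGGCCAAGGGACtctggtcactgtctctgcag
Ighj4, chr12:113428514-113428567: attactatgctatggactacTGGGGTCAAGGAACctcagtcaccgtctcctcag
Igkj1, chr6:70722562-70722599: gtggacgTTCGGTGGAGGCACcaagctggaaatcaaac
Igkj2, chr6:70722916-70722954: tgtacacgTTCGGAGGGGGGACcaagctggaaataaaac
Igkj4, chr6:70723548-70723585: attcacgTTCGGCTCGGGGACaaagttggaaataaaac
Igkj5, chr6:70723886-70723923: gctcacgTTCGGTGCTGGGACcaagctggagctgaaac
Iglj1, chr16:19063225-19063262: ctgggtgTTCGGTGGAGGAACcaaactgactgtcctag
Ighm, chr12:113422581-113422730: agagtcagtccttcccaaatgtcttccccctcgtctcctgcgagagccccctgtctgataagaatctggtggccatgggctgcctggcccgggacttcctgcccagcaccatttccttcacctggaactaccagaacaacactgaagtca
Igkc, chr6:70726435-70726584: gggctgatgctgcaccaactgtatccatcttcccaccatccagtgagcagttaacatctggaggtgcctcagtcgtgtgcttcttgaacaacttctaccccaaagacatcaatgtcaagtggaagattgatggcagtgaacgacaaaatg

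RNA-seq was performed on naive CD4+ T cells from pooled lymph nodes and spleens of mice. Cells were left unstimulated (0 h) or kept for 4 h or 20 h with plate-bound anti-CD3 at 3 µg/ml and soluble anti-CD28 at 1 µg/ml. Whether unstimulated cells were cultured is not said in the sources used here. No unstimulated group was labelled 4 h or 20 h, so stimulation and time in culture cannot be told apart. In the CD5/CD6 experiment, cells of WT, Cd5-/-, Cd6-/- and Cd5-/-Cd6-/- mice were enriched with a magnetic kit that removes other cells. The Cd6-/- allele lacks a stretch with the start codon, and the doubly deficient mice carry 1 deletion that spans both genes. In the LAT experiment, WT (human DTR+) and Lat-/- (human DTR-) cells were flow sorted from Lat fl-dtr maT-Cre mice, so both of its groups come from mice with the floxed allele and the T cell Cre. Each of the 12 groups of the CD5/CD6 experiment and the 6 groups of the LAT experiment held 3 libraries. By the study's methods, the mice of both experiments were on a C57BL/6 background and 8 to 10 wk old. By the study's own account the 3 samples of a condition were independent, but the sources used here do not say whether each came from other mice, so the tests measure the spread between these samples.

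Libraries held 20554354 to 45222554 reads in the CD5/CD6 experiment and 17784644 to 28501095 in the LAT experiment, so that 3 reads in 1 library stood for 0.0631 to 0.176 CPM on the TMM-adjusted scale. In the 0 h libraries labelled Cd5-/-, the level of Cd5 was 129, 719 and 105 CPM, and that of Cd6 was 1298, 329 and 1084 CPM. In those labelled Cd6-/-, the level of Cd5 was 724, 172 and 719 CPM, and that of Cd6 was 349, 1203 and 251 CPM. Library 2 of each of these groups thus had the other group's pattern of the targeted genes. Both are called doubtful below, and counts of members called against 0 h, the leading fold changes and the 0 h relations between genes are also given without both of them. Summed T cell identity markers lay between 3065 and 7573 CPM in the CD5/CD6 libraries. The pair of experiments was counted and normalized apart, and levels across them are set side by side without a test.

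In unstimulated enriched cells, immunoglobulin reads came mainly from Ighm (ENSMUSG00000076617.9, chr12:113418558-113422730), the mu heavy chain constant gene. Over the 12 libraries at 0 h, summed CPM of the members ranged from 854 to 2997 with a median of 1260, and 54.3% to 82.1% of that sum was Ighm. Over all 36 libraries Ighm held 66.5% of member reads and Igkc (ENSMUSG00000076609.2, chr6:70726435-70726966), the kappa light chain constant gene, held 13.7%. IGKV genes held 5.25%, lambda constant genes 3.39%, Ighd 3.28%, IGHV genes 2.90%, Igha 1.87% and Ighg genes 1.17%. Per kilobase of exon the order was less steep, with Ighm at 363 to 863 CPM per kb and Igkc at 118 to 1105 CPM per kb at 0 h. The kappa share of light chain constant CPM per kb was 72.1% to 80.9%.

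Ighm at 0 h stood at 835, 737 and 1628 CPM in WT, at 702, 816 and 805 CPM in the libraries labelled Cd5-/-, at 832, 685 and 1327 CPM in those labelled Cd6-/-, and at 851, 945 and 901 CPM in Cd5-/-Cd6-/- cells. At 4 h it stood at 223, 168 and 366 CPM in WT, 110, 115 and 134 CPM in Cd5-/-, 161, 232 and 336 CPM in Cd6-/-, and 219, 299 and 246 CPM in Cd5-/-Cd6-/- cells. At 20 h it stood at 341, 311 and 386 CPM in WT, 352, 310 and 405 CPM in Cd5-/-, 400, 350 and 381 CPM in Cd6-/-, and 361, 310 and 378 CPM in Cd5-/-Cd6-/- cells. Every 0 h library was above every later one, whereas the 4 h and 20 h ranges overlapped between 310 and 366 CPM. WT library 3 and Cd6-/- library 3 were the highest of the 0 h libraries.

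Igkc followed another course. At 0 h it stood at 172, 94.8 and 588 CPM in WT, at 62.6, 147 and 107 CPM in the libraries labelled Cd5-/-, at 137, 75.1 and 468 CPM in those labelled Cd6-/-, and at 201, 240 and 177 CPM in Cd5-/-Cd6-/- cells. At 4 h it stood at 106, 58.5 and 193 CPM in WT, 40.5, 45.5 and 47.3 CPM in Cd5-/-, 65.8, 103 and 185 CPM in Cd6-/-, and 116, 158 and 106 CPM in Cd5-/-Cd6-/- cells. The same 2 libraries, WT 3 and Cd6-/- 3, were highest at both times, and the 0 h and 4 h ranges overlapped. At 20 h Igkc stood at 0.141, 0.332 and 1.37 CPM in WT, 0.0898, 0.57 and 0.715 CPM in Cd5-/-, 0.278, 0.788 and 5.39 CPM in Cd6-/-, and 0.207, 1.11 and 1.44 CPM in Cd5-/-Cd6-/- cells, all below every earlier library.

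**Figure D1:**
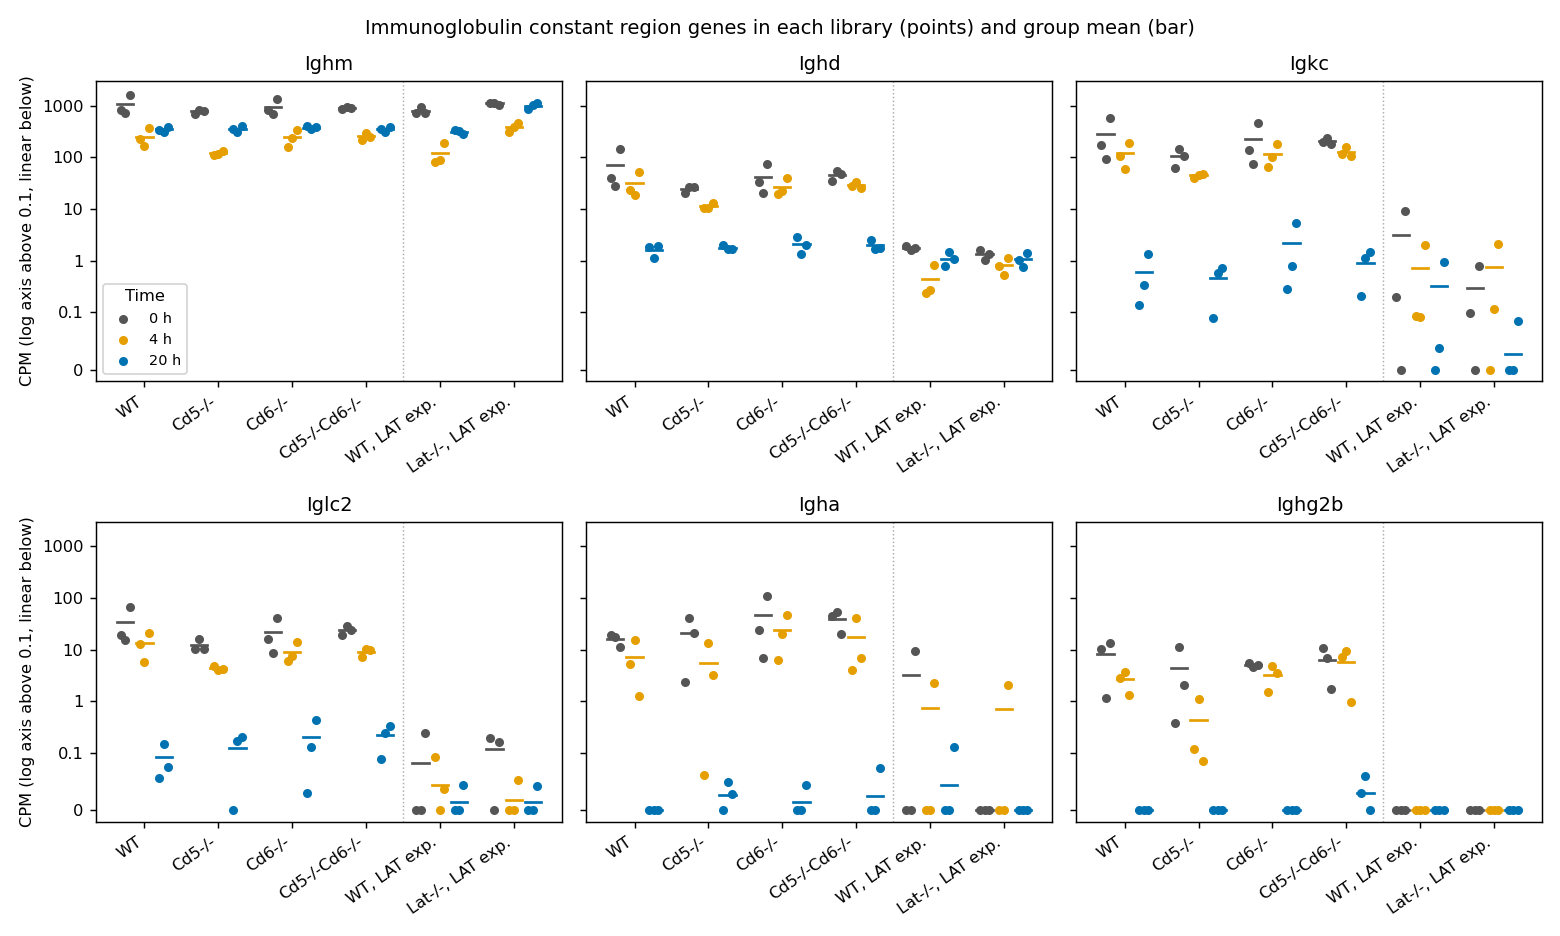
CPM of 6 immunoglobulin constant genes (panels) in each library, with points for libraries and a bar for the mean of 3 libraries, coloured by hours of stimulation. The y axis is logarithmic above 0.1 and linear below it, and the dotted line separates the CD5/CD6 experiment (4 genotypes) from the LAT experiment (2 genotypes). At 20 h Ighm stayed at 310 to 405 CPM in the enriched cells, whereas Ighd, Igkc, Iglc2, Igha and Ighg2b were at 5.39 CPM or less.

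Tests were made with edgeR over all 32290 genes with a read, and a gene was called where its fold was above 2 and its Benjamini-Hochberg adjusted p below 0.05. Without a filter on low genes the estimate of each gene's spread leaned strongly on the trend over all genes (prior weight of 50.9 degrees of freedom in the CD5/CD6 experiment, against 4.82 with edgeR's filterByExpr), so standard errors and counts with that filter are printed second. The filter kept 154 of the 177 members. Averaged over the 4 genotypes, Ighm fell by 2.14 on the log2 scale at 4 h (SE 0.11, adjusted p = 5.29e-30 by edgeR; SE 0.14 with the filter) and was 1.36 below 0 h at 20 h (log2 fold change -1.36, SE 0.11, adjusted p = 7.33e-20 by edgeR; SE 0.13 with the filter). From 4 h to 20 h Ighm was higher by 0.78 (SE 0.10, adjusted p = 5.94e-10 by edgeR), a change under 2-fold that did not count as a call. Mean Ighm CPM was 23.6% of its 0 h mean at 4 h and 38.7% at 20 h.

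Igkc fell by 1.04 on the log2 scale at 4 h (SE 0.22, adjusted p = 4.81e-05 by edgeR), but this value lay at the 2-fold limit and was not a call with the filter (-0.96, SE 0.34), without replicate 3 (-0.75) or without WT 0 h library 3 (-0.76). At 20 h Igkc was lower by 7.82 (log2 fold change -7.82, SE 0.32, adjusted p = 2.34e-36 by edgeR; SE 0.48 with the filter), and 0.503% of its 0 h mean was left. Ighd, the delta constant gene that naive B cells splice from the same primary transcript as Ighm, had 53.9% of its 0 h mean at 4 h and 4.05% at 20 h (log2 fold change -4.53, SE 0.19, adjusted p = 1.87e-35 by edgeR; SE 0.27 with the filter). Its 12 libraries lay between 20.2 and 148 CPM at 0 h, between 10.4 and 51.5 CPM at 4 h and between 1.11 and 2.81 CPM at 20 h, the last range being apart from the others. Per kilobase, the ratio of Ighd to Ighm had a median of 0.0396 at 0 h, 0.107 at 4 h and 0.00532 at 20 h.

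The lambda constant gene Iglc2 was at 8.68 to 67.6 CPM at 0 h, 4.11 to 21.4 CPM at 4 h and 0 to 0.442 CPM at 20 h, where it was lower by 7.15 (log2 fold change -7.15, SE 0.27 by edgeR; SE 0.38 with the filter). Iglc1 kept 0.35% and Iglc3 1.07% of their 0 h means at 20 h. Light chain constant genes of both kinds thus kept at most 1.07% of their 0 h means at 20 h, with Igkc highest at 5.39 CPM in Cd6-/- library 3.

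Without both doubtful 0 h libraries, these values kept their direction. At 4 h the log2 fold change was -2.19 for Ighm and -1.07 for Igkc (-2.17 and -1.05 with the filter, where Igkc was then a call). At 20 h it was -1.43 for Ighm, -7.88 for Igkc, -4.63 for Ighd and -7.21 for Iglc2, and each of these was a call with the filter too. The share of the 0 h mean left at 20 h was then 37.3% for Ighm, 0.461% for Igkc and 3.69% for Ighd.

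Switched heavy chain genes differed widely between libraries of a group at 0 h. Igha, the IgA constant gene used by mucosal plasma cells, was at 19.6, 17.8 and 11.1 CPM in WT, 2.38, 40.6 and 20.8 CPM in the libraries labelled Cd5-/-, 24.1, 6.83 and 111 CPM in those labelled Cd6-/- and 44.2, 52.9 and 20.3 CPM in Cd5-/-Cd6-/- cells. Ighg2b was at 10.2, 1.17 and 13.3 CPM in WT and at 0.379, 11.1 and 2.05 CPM in the libraries labelled Cd5-/-. Replicates of 1 group thus spanned more than the groups did. At 20 h Igha was at 0.0736 CPM or less in each of 12 libraries and Ighg2b had no read in 10 of 12. Ighe reads at 0 h were all from WT library 1 (44 reads, of 52 in the whole experiment), where Ighe stood at 1.46 CPM.

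Ighg3 and Ighg1 kept more than Igha, Ighg2b and Ighg2c. Ighg3 was at 0.226 to 0.737 CPM in all 12 libraries at 20 h, 14.5% of its 0 h mean (log2 fold change -2.62, SE 0.39, adjusted p = 1.18e-08 by edgeR; SE 0.58 with the filter), and Ighg1 had 5.94% left. Ighg2b and Ighg2c had 0.123% and 0.179% left, and Ighe, on its 52 reads in all, had 12.2%. These differences between genes are descriptions, since no test compared the genes with each other.

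The J genes also separated. Reads of Ighj1 summed over 12 libraries numbered 406 at 0 h, 155 at 4 h and 58 at 20 h, and at 20 h each library had at least 2 of them (0.0858 to 0.328 CPM). Reads of Ighj2, the neighbouring segment downstream, numbered 363, 172 and 2. Ighj3 had 204, 77 and 4 reads and Ighj4 had 250, 92 and 2 reads. Ighj1 alone among the 4 heavy chain J genes, whose sequences are printed above, was thus read in every 20 h library, with 14.9% of its 0 h mean left against 0.506% for Ighj2. At 20 h the log2 fold change was -2.62 for Ighj1 (SE 0.32, adjusted p = 2.92e-11 by edgeR; SE 0.35 with the filter) and -7.13 for Ighj2, a fitted value that rests on 2 reads. The kappa J genes Igkj1, Igkj2, Igkj4 and Igkj5 fell to between 0.339% and 1.02% of their 0 h means.

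**Figure D2:**
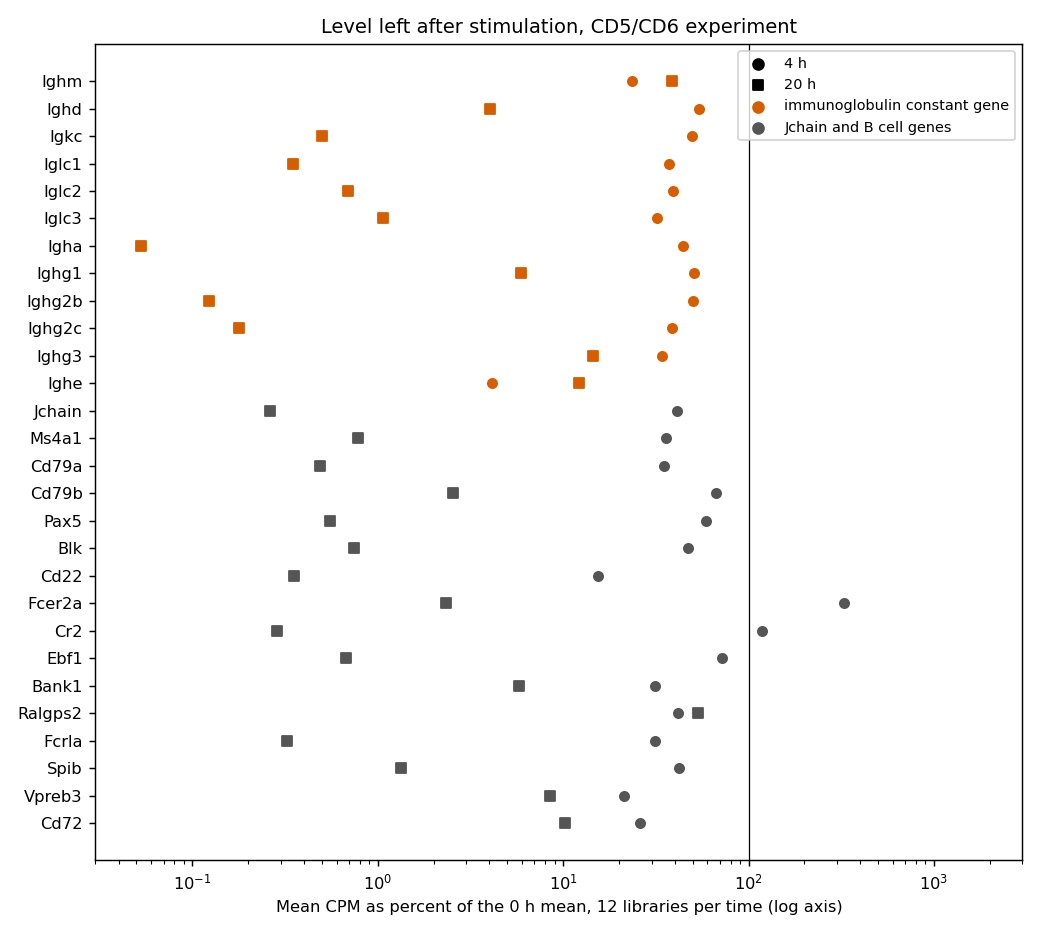
Mean CPM over 12 libraries at 4 h (circles) and 20 h (squares) as a percentage of the 0 h mean, on a logarithmic axis, for the 12 immunoglobulin constant genes (orange) and for Jchain and 15 B cell genes (grey) of the CD5/CD6 experiment. The vertical line marks 100%; at 20 h Ighm kept 38.7% and Ralgps2 53.4%, whereas Igkc kept 0.503% and Cd79a 0.491%.

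Counted over the members, 97 of 177 were called lower and 0 higher at 4 h as a mean of the 4 genotypes. Of all genes tested, 26.2% were called in either direction and 15.4% lower. With the filter, 81 of 154 members were lower, beside 42% of all genes called in either direction. The edgeR count with an unadjusted p below 0.05, without the filter, was 127 members, beside 15184 of 32290 genes, and DESeq2 called 82 members. At 20 h, 174 of 177 members were called lower and 0 higher. The count was 152 of 154 with the filter, where 58.6% of all genes were called in either direction. Without the filter, 39.2% of all genes were called in either direction and 23.9% lower. From 4 h to 20 h, 157 members were called lower and 0 higher, beside 29.7% and 18.7%. The members not called at 20 h were Ighe, Ighv8-5 and Igkv4-90. Because the 50-read limit was met over all 36 libraries, most members passed it through their 0 h and 4 h reads, so a member without reads at 20 h had to be lower there, and these counts describe the course of the members without adding support to it. Leaving out the 0 h libraries 2 labelled Cd5-/- and Cd6-/- gave 93 members at 4 h and 170 at 20 h. The median log2 fold change over the members was -1.19 at 4 h and -6.57 at 20 h, beside -0.08 and -0.31 over all genes. With the 102 members that had no read at 20 h set to the limit of 3 reads over the group (0.00819 CPM), the 20 h median was -6.07.

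In WT cells alone, 74 members were called lower and 0 higher at 4 h (19.3% of all genes called in either direction, 11.1% lower), and 171 lower and 0 higher at 20 h (29.6% and 17.3%). The 4 h count was less firm. It was 43 of 154 with the filter, 35 with DESeq2, 47 without replicate 3 and 20 (19 lower and 1 higher) without WT 0 h library 3. With the filter, 37.9% of all genes were called in either direction. The share called lower was not counted with the filter, so the filtered count does not show whether members were called lower more often than genes in general. Ighm in WT fell by 2.08 at 4 h (SE 0.22, adjusted p = 2.32e-13 by edgeR; SE 0.27 with the filter) and was lower by 1.62 at 20 h (log2 fold change -1.62, SE 0.21, adjusted p = 5.37e-10 by edgeR; SE 0.27 with the filter). Igkc in WT at 4 h had a log2 fold change of -1.26 (adjusted p = 0.0242 by edgeR), and of -0.18 (adjusted p = 0.905) without WT 0 h library 3.

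**Figure D3:**
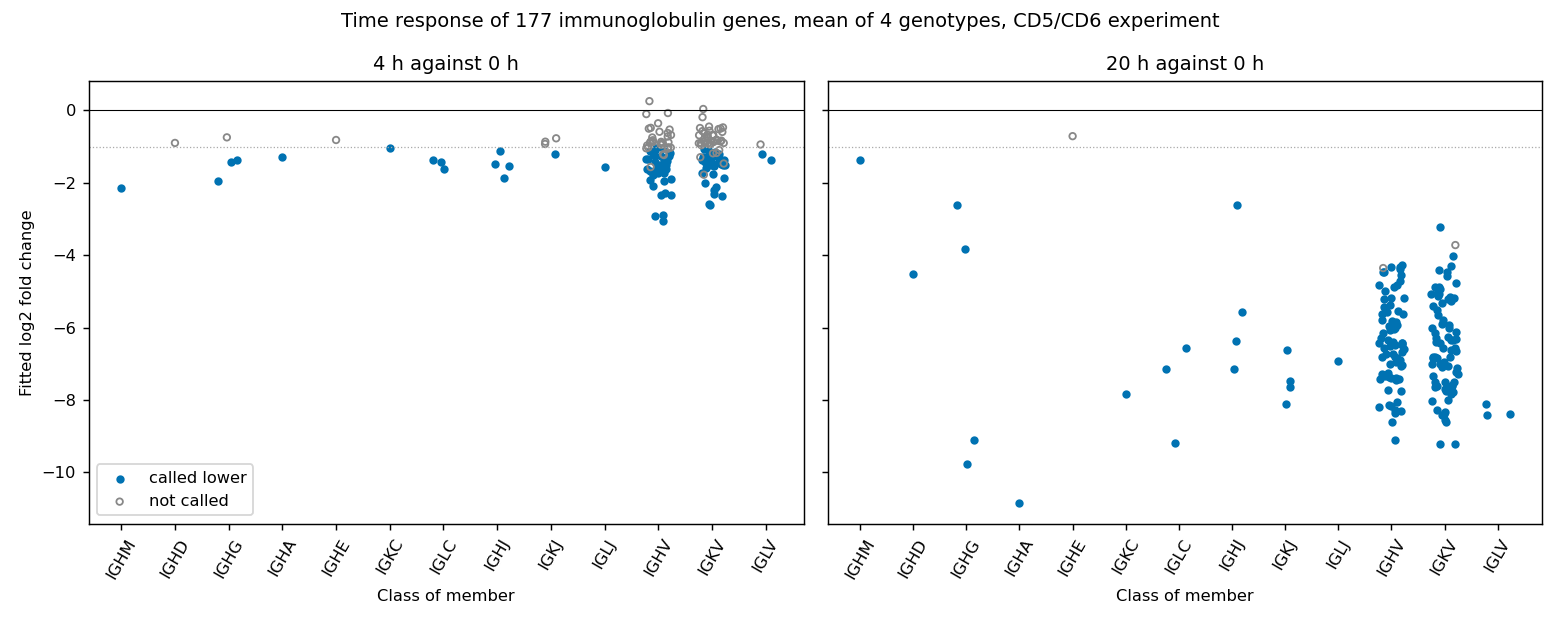
Fitted log2 fold change of each of the 177 members (points) by class, as a mean of the 4 genotypes of the CD5/CD6 experiment, at 4 h (left) and 20 h (right) against 0 h; filled points were called and open points were not, and the dotted line marks a 2-fold decrease. Called values at 20 h spread from -1.36 for Ighm to -10.86 for Igha, and those of genes with no read at 20 h depend on the fit and set no bound.

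V genes were read broadly at 0 h and almost not at 20 h. At 0 h each library held reads of 60 to 74 of the 74 IGHV members and of 69 to 79 of the 79 IGKV members. At 4 h it held 44 to 71 IGHV and 59 to 77 IGKV members, and at 20 h 0 to 5 IGHV and 1 to 17 IGKV members. The number of members with no read in any of the 3 libraries of a group was 0 to 3 at 0 h, 1 to 14 at 4 h and 131 to 152 at 20 h. At 4 h, 42 of 74 IGHV and 38 of 79 IGKV members were called lower as a mean of the 4 genotypes, beside 15.4% of all genes. The median share of the 0 h mean left was 47.8% and 47.4%. At 20 h both medians were 0%, and no member of either class kept more than 3.37%. Most members met the 50-read limit through their 0 h and 4 h reads, so these low 20 h shares follow in part from that limit. V genes resemble each other closely, with 17 of the 156 V members having fewer than 50% of their 50-base windows unique among the annotated transcripts, so counts of single V genes are uncertain where the authors' counting could have split reads.

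The V genes with most reads were used in every genotype. Ighv9-3 was the most read IGHV gene in 5 of the 12 libraries at 0 h and Ighv6-3 in 3, whereas Igkv10-96 was the most read IGKV gene in 7. The most read gene held 5.33% to 9.86% of a library's IGHV reads and 5.44% to 15.1% of its IGKV reads. No library was thus dominated by a single V gene at this depth. The highest share was that of Igkv5-39 in WT 0 h library 2, 213 of 1411 IGKV reads (15.1%, 95% Wilson interval 13.3% to 17.1%, which covers counting error only).

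Igkv10-96 was at 7.68, 4.88 and 9.17 CPM in WT at 0 h, at 5.35, 1.97 and 3.9 CPM at 4 h, and at 0, 0 and 0.0381 CPM at 20 h. Ighv9-3 was at 2.76, 1.51 and 6.11 CPM in WT at 0 h, at 0.661, 0.414 and 1.67 CPM at 4 h, and had no read at 20 h in any of the 12 libraries. Both fell below their 0 h range by 20 h in all genotypes. A few V genes rested on 1 library. Igkv3-9 had 47 of its 52 reads at 0 h in the library labelled Cd6-/- 1, and Igkv8-34 stood at 4.56 CPM in Cd5-/-Cd6-/- 4 h library 2 and at 0 in the other two of that group.

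**Figure D4:**
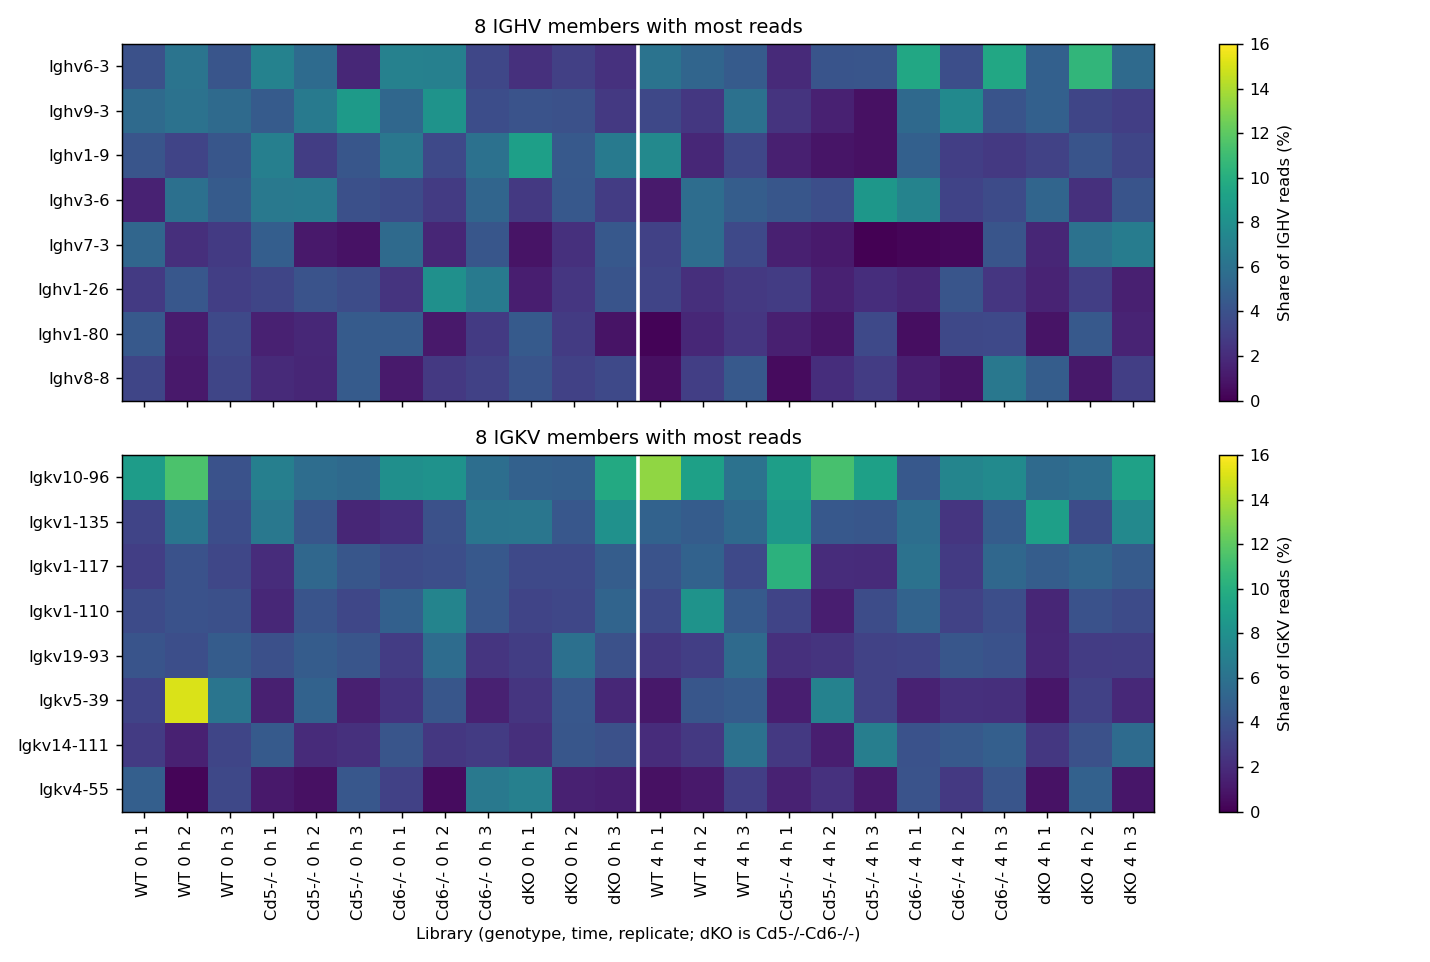
Share (colour, in percent) of a library's IGHV reads (top) or IGKV reads (bottom) held by the 8 members of each class with most reads, in the 12 libraries at 0 h and the 12 at 4 h of the CD5/CD6 experiment, split by the white line. Shares differed from library to library without 1 gene taking over, the largest being Igkv5-39 at 15.1% in WT 0 h library 2.

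IGKV reads kept pace with Igkc from 0 h to 4 h, whereas IGHV reads did not keep pace with Ighm. IGHV reads were not set against Igkc. IGKV reads per 100 Igkc reads numbered 33.8 to 50.6 at 0 h and 31.7 to 48.4 at 4 h, and 45.1 in the only 20 h library with at least 50 Igkc reads (Cd6-/- library 3). IGHV reads per 100 Ighm reads numbered 1.85 to 6.76 at 0 h (median 4.64), 4.52 to 14.3 at 4 h (median 8.63) and 0 to 0.0696 at 20 h. The ratio of Ighm to Igkc CPM was 2.77 to 11.2 at 0 h, 1.82 to 2.87 at 4 h and 70.6 to 3914 at 20 h, so no 20 h library overlapped an earlier one. Ighm made up 42.3% to 56.1% of member CPM at 4 h and 96.8% to 99.2% at 20 h.

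Within a time, Ighm rose with Igkc from library to library at 0 h and 4 h but not at 20 h. A line fitted by least squares, chosen after the values were seen and given as a description, had a slope of 1.71 (SE 0.0743) Ighm CPM per Igkc CPM and met 0 Igkc at 571 (SE 19.1) CPM of Ighm at 0 h, and of 1.70 (SE 0.0860) and 575 (SE 23.8) CPM in the 10 libraries left without those labelled Cd5-/- 2 and Cd6-/- 2. At 4 h the slope was 1.55 (SE 0.0772) and the line met 0 Igkc at 59.1 (SE 8.82) CPM. At 20 h the slope was 6.17 (SE 7.17) and the line met 0 Igkc at 351 (SE 12.4) CPM. The slopes at 0 h and 4 h thus lay close together while the Ighm level at 0 Igkc differed between the 3 times.

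**Figure D5:**
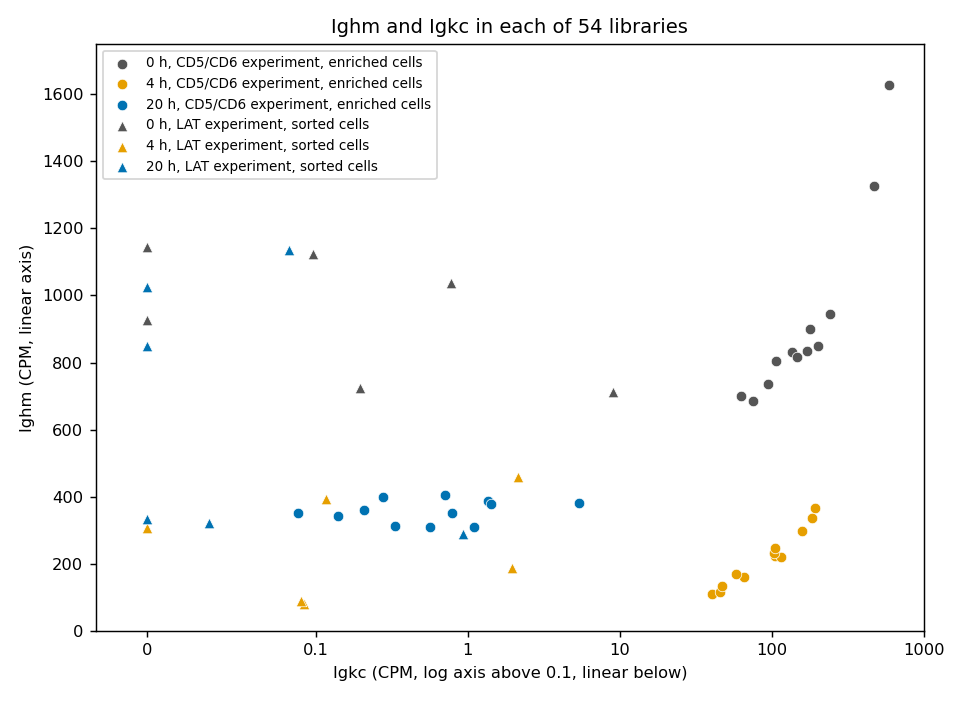
Ighm (y axis, CPM) against Igkc (x axis, CPM, logarithmic above 0.1 and linear below) in each of 54 libraries, with circles for the CD5/CD6 experiment and triangles for the LAT experiment, coloured by time. Sorted LAT libraries at 0 h sit at 713 to 1146 CPM of Ighm with 0 to 9.10 CPM of Igkc, whereas enriched libraries at 0 h reach 1628 CPM of Ighm with 62.6 to 588 CPM of Igkc.

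By 20 h most B cell genes had fallen further than Ighm, as most other members had. The summed CPM of a list of 16 B cell genes was 174 to 976 at 0 h, 104 to 387 at 4 h and 29.8 to 44.1 at 20 h over the 12 libraries of each time. Of the 16, 10 were called lower and 1 higher at 4 h, beside 15.4% of all genes called lower. At 20 h 15 were called lower and 0 higher, beside 23.9%. Cd79a and Ms4a1, a B cell receptor subunit and the B cell surface protein CD20, kept 0.491% and 0.782% of their 0 h means at 20 h, close to the 0.503% of Igkc. Ralgps2 was the gene of this list that was not called at 20 h, with 53.4% left. Jchain, the chain that links IgA and IgM polymers in plasma cells, kept 41.3% at 4 h and 0.263% at 20 h. In bulk RNA, fewer cells of a type and less RNA per cell cannot be told apart.

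Other markers fell as well. Of 12 class II and myeloid or dendritic genes, 11 were called lower at 20 h, as were 3 of 3 red cell genes, 5 of 6 CD8 T and NK genes and 4 of 4 gamma delta T cell genes, while T cell identity genes had 1 of 7 called higher and 3 called lower. Summed class II and myeloid or dendritic CPM went from 326 to 2244 at 0 h to 77.9 to 120 at 20 h, and summed red cell CPM from 220 to 3723 to 1.84 to 61.1. The part of these cells in the immunoglobulin values was not tested.

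Of 12 genes of B cell receptor signalling, 8 were called lower and 1 higher at 20 h as a mean of the 4 genotypes, and of 7 plasma cell genes 4 were lower and 3 higher. The plasma cell genes that moved were not of a single course. Xbp1, a transcription factor of secretory cells that other cells also use, rose by 1.99 on the log2 scale at 4 h and by 1.35 at 20 h, Sdc1 rose by 2.06 at 20 h, and Prdm1 and Jchain fell by 6.54 and 8.96 at 20 h. Of 13 genes of immunoglobulin transcription and diversification, 4 were called higher and 6 lower at 20 h. Irf4, a factor that both B and T cells induce on receptor stimulation, rose by 6.62 at 4 h and 6.03 at 20 h, and Pou2af1, a coactivator of octamer-binding factors, rose by 3.84 and 1.56. Spi1 and Ebf1, factors of myeloid and B cells, fell by 7.07 and 6.92 at 20 h. These lists were fixed with earlier results of these data known, and their counts are read against the 39.2% of all genes called at 20 h.

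Across the 12 libraries of each time, which hold all 4 genotypes, Igkc, Ighm and Jchain were compared with Cd79a, and Jchain with Ighg2b, on the log2(CPM + 1) scale. The family of 12 relations was tested by permutation (two-sided, 100000 permutations, smallest possible p 1e-05). The permutations treated the libraries as exchangeable. Libraries of the same replicate number shared deviations in some comparisons (mean r 0.514 for Cd6-/- and WT at 0 h), which these p values do not allow for. At 0 h Igkc rose with Cd79a, with Pearson's r of 0.966 (permutation p = 1e-05, adjusted p = 3e-05) and Spearman's rho of 0.937 (permutation p = 5e-05, adjusted p = 0.00015). Ighm did so with r of 0.966 (permutation p = 1e-05, adjusted p = 3e-05) and rho of 0.972 (permutation p = 2e-05, adjusted p = 8e-05). Without the 2 libraries farthest from the median of Cd79a (WT 3 and Cd6-/- 3), r was 0.903 for Igkc and 0.906 for Ighm, so both relations held. Without both doubtful 0 h libraries, r was 0.976 for Igkc (adjusted p = 4e-05 by permutation) and 0.971 for Ighm (adjusted p = 6e-05 by permutation). At 4 h r was 0.963 for Igkc and 0.982 for Ighm, with the same permutation and adjusted p as at 0 h, and rho was 0.965 and 0.972 (adjusted p = 8e-05 by permutation for each). Without the farthest 2 libraries r was 0.944 and 0.970. At 20 h, when Igkc was at 0.0898 to 5.39 CPM, r was 0.466 for Igkc (permutation p = 0.124, adjusted p = 0.165) and 0.199 for Ighm (permutation p = 0.527, adjusted p = 0.575), with rho of 0.301 and 0.175 (adjusted p = 0.456 and 0.705 by permutation). Jchain and Cd79a gave r of 0.890 at 0 h (permutation p = 0.00012, adjusted p = 0.000288) with rho of 0.902 (permutation p = 0.00016, adjusted p = 0.00038), and r of 0.863 at 4 h (permutation p = 0.00056, adjusted p = 0.00112) with rho of 0.909. Jchain and Ighg2b gave r of 0.701 at 0 h (permutation p = 0.0113, adjusted p = 0.0169) with rho of 0.699 (permutation p = 0.0145, adjusted p = 0.0248), but r was 0.475 without the 2 farthest libraries, so this relation rested in part on them. Without both doubtful 0 h libraries, r at 0 h was 0.918 for Jchain and Cd79a (adjusted p = 0.000528 by permutation) and 0.779 for Jchain and Ighg2b (adjusted p = 0.0111 by permutation). At 4 h r was 0.759 (permutation p = 0.00541, adjusted p = 0.00927), and 0.635 without the 2 farthest. At 20 h no relation of Jchain passed (r of 0.351 and -0.136, adjusted p = 0.338 and 0.704 by permutation).

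The genes most like Igkc over the 36 libraries, after the mean of each time was taken out, were class II and B cell genes. Out of 10767 genes whose mean was 50 reads or more, H2-Aa (r = 0.953), H2-Eb1 (0.940) and H2-Ab1 (0.934), chains of class II molecules that present antigen, ranked first. Cd40 (0.905), Ms4a1 (0.904), Fcer2a (0.892), Cd83 (0.889), H2-DMb2 (0.886) and Jchain (0.881) followed. Cd40, Fcer2a and Cd83 were higher at 4 h than at 0 h, unlike Igkc itself. Their medians were 5.92 against 1.74 CPM, 41.5 against 10.3 CPM and 106 against 8.54 CPM.

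The comparison of knockout with WT cells asked whether loss of CD5 or CD6 went with other immunoglobulin levels. An unadjusted p below 0.05 between Cd5-/- and WT cells at 0 h was found for 97 of 177 members, beside 955 of 32290 genes. In that comparison 5 members were called lower and 0 higher by edgeR, beside 0.0619% of all genes called in either direction and 0.0557% called lower. They were Ighd (log2 fold change -1.54, SE 0.32, adjusted p = 0.029), Iglv1 (-2.01), Igkv5-39 (-2.79), Igkv8-27 (-3.18) and Igkv8-19 (-3.33). Ighd was at 39.2, 27.4 and 148 CPM in WT and at 20.8, 26.3 and 26.8 CPM in the libraries labelled Cd5-/-, so that the groups did not overlap while WT library 3 stood apart. None of these calls was made with the filter on low genes (0 of 154 members) or by DESeq2 (0), and 2 members were called without WT 0 h library 3. Leaving out the 0 h libraries 2 labelled Cd5-/- and Cd6-/- gave 40 calls without the filter and 0 with it. The share of all genes called in these fits is not given here, so these counts are not read as a result about the members. Igkc had a log2 fold change of -1.43 (adjusted p = 0.478 by edgeR) and Ighm of -0.46 (adjusted p = 1). Without those libraries 2 it was -1.76 for Igkc (adjusted p = 0.000565 by edgeR, and 0.907 with the filter) and -0.51 for Ighm (adjusted p = 0.505).

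At 4 h the labels went with the targeted genes in every library. In Cd5-/- against WT cells, 73 members had an unadjusted p below 0.05, beside 1096 of 32290 genes. By edgeR 5 members were again called lower and 0 higher (0.0743% of all genes in either direction and 0.0465% lower). They were Ighm (log2 fold change -1.07, SE 0.21, adjusted p = 0.00802), Ighd (-1.47, SE 0.32, adjusted p = 0.0295), Ighv9-3 (-2.87), Ighv1-9 (-3.47) and Ighv8-12 (-3.51). The Cd5-/- libraries, at 110 to 134 CPM of Ighm and 10.4 to 12.8 CPM of Ighd, lay below all WT libraries, at 168 to 366 CPM and 18.5 to 51.5 CPM. The count was 11 with the replicate number as a block, which the libraries' deviations at 4 h followed, 1 with DESeq2 and 0 with the filter, where the SE of Ighm was 0.26 and its adjusted p 0.274. The median log2 fold change over the members was -1.52 at 0 h and -1.46 at 4 h, beside 0 over all genes in both.

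The B cell list moved the same way, with summed CPM of 178 to 234 in the libraries labelled Cd5-/- against 242 to 976 in WT at 0 h, and of 104 to 121 against 147 to 387 at 4 h. Of its 16 genes, 4 were called lower at 0 h and 0 at 4 h by edgeR, beside 0.0557% and 0.0465% of all genes called lower. Of 4 gamma delta T cell genes, 1 was called higher at 0 h and 4 at 4 h, beside 0.0619% and 0.0743% of all genes called in either direction. With the filter none of these calls was made, with 0 of 16 and 0 of 4 at both times. Without both doubtful 0 h libraries, 14 and 12 B cell genes were called lower and 4 and 4 gamma delta genes higher at 0 h and 4 h, and with the filter as well 0 and 0 and 1 and 1. The share of all genes called without those libraries is not given here. The part of other cells in the Cd5-/- values was not tested.

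The remaining comparisons of knockout with WT cells gave almost no call by edgeR. There was 0 of 177 members for Cd5-/- at 20 h (2 at an unadjusted p below 0.05), for Cd6-/- at 0 h, 4 h and 20 h (38, 19 and 2) and for Cd5-/-Cd6-/- cells at 0 h and 20 h (21 and 3), with 0 by DESeq2 in each. Among all 32290 genes, 723, 707, 885, 541, 594 and 742 had an unadjusted p below 0.05 in the same order. Background shares of all genes called in either direction were 0.0186%, 0%, 0.0031%, 0.0186%, 0.0248% and 0.0434% in that order. Leaving out the labelled libraries 2 gave 2 members for Cd6-/- at 0 h and 1 at 4 h, and 0 of each with the filter. In Cd5-/-Cd6-/- cells at 4 h the sole call was Igkv8-34 (log2 fold change 5.97, SE 1.30, adjusted p = 0.0483 by edgeR; 0.0434% of all genes called), which rested on library 2 and was lost with the filter and with the replicate block.

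In the sorted cells of the LAT experiment, Ighm at 0 h lay within the range of the enriched cells while the other members were low. Ighm was at 725, 927 and 713 CPM in WT and at 1125, 1146 and 1037 CPM in Lat-/- cells at 0 h. It was at 80.6, 89.9 and 188 CPM in WT and 308, 393 and 459 CPM in Lat-/- cells at 4 h, and at 333, 322 and 289 CPM in WT and 849, 1024 and 1134 CPM in Lat-/- cells at 20 h. Lat-/- libraries were above WT libraries at each time without overlap. The summed CPM of all other members was 1.63 to 28.5 at 0 h, 0.367 to 6.81 at 4 h and 1.03 to 2.78 at 20 h, and Ighm made up 99.3% of member reads.

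Of the 16 genes of the B cell list, 11 were at 0.665 CPM or less in all 18 sorted libraries, among them Ms4a1 at no more than 0.168 CPM and Pax5, a B cell transcription factor, at no more than 0.122 CPM. The other 5 reached more. Cd79a was at 0.184 to 1.09 CPM, Cd79b, its partner in the B cell receptor, at 0.0828 to 3.75 CPM, Bank1 at 0.280 to 6.64 CPM, Cd72 at 2.23 to 21.8 CPM and Ralgps2 at 19.3 to 54.4 CPM. The summed list was 60.9 to 81.8 CPM at 0 h, for which Ralgps2 counted most. Red cell genes summed to no more than 2.50 CPM. Ighm reads at 713 to 1146 CPM were thus measured in 0 h libraries with Igkc at 0 to 9.10 CPM.

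Igkc in the sorted cells was at 0.196, 0 and 9.10 CPM in WT and 0.0987, 0 and 0.773 CPM in Lat-/- cells at 0 h, at 0.0935, 0.0916 and 1.96 CPM in WT and 0, 0.117 and 2.13 CPM in Lat-/- cells at 4 h, and at 0, 0.0369 and 0.928 CPM in WT and 0, 0 and 0.0841 CPM in Lat-/- cells at 20 h. Igha was read in libraries 3 only, at 9.52, 2.26 and 0.133 CPM in WT at 0 h, 4 h and 20 h and at 2.08 CPM in Lat-/- cells at 4 h. In each group library 3 was thus the highest in both genes, or tied at 0. Ighg1, Ighg2b and Ighg2c had no read in 18 libraries, for which 3 reads over all of them stand for 0.00717 CPM.

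The V reads of the sorted cells came from few genes. WT 0 h library 3 held 88 IGHV and 101 IGKV reads, of which Ighv1-15 had 42 and Igkv12-44 had 42 and Igkv2-109 35. In WT 4 h library 3, 26 of 28 IGKV reads were from Igkv1-110, and in Lat-/- 4 h library 3, 13 of 13 IGHV reads were from Ighv1-49. These genes had no or hardly any read in the other sorted libraries. Each enriched 0 h library had reads of 60 or more IGHV members, but on 480 to 4536 IGHV reads, against 0 to 88 in a sorted 0 h library. The members were also chosen by their reads in the enriched cells, so the breadth of V gene reads cannot be compared between the experiments. IGHV reads per 100 Ighm reads had a median of 0.0132 at 0 h.

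Ighd and Ighj1 were the members besides Ighm that nearly all sorted libraries at 0 h and 20 h held. Ighd was at 1.92, 1.61 and 1.75 CPM in WT and 1.58, 1.03 and 1.34 CPM in Lat-/- cells at 0 h, at 0.234, 0.275 and 0.83 CPM and 0.786, 0.528 and 1.14 CPM at 4 h, and at 0.77, 1.44 and 1.06 CPM and 1.01, 0.742 and 1.43 CPM at 20 h. Lat-/- libraries lay below WT libraries at 0 h (log2 fold change -0.42, adjusted p = 0.938 by edgeR), and the groups overlapped at 4 h and 20 h. Ighj1 had 62 reads over the 6 libraries at 0 h, 1 at 4 h and 38 at 20 h, against 2, 1 and 6 reads for Ighj2. At 20 h it was at 0.0428, 0.0369 and 0.0884 CPM in WT and at 0.556, 0.297 and 0.631 CPM in Lat-/- cells, without overlap. All 10 Ighg3 reads of the sorted cells were at 20 h.

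In WT sorted cells, 9 of 53 members with a read were called lower and 1 higher at 4 h (17.3% of 27780 genes called in either direction) and 6 lower and 0 higher at 20 h (23.5%). In Lat-/- cells, 2 were called lower and 1 higher at 4 h (6.70%) and 1 lower and 0 higher at 20 h (4.21%). In this unfiltered fit the spread of each gene was taken wholly from the trend over all genes, so its standard errors do not carry the gene's own spread between libraries. With filterByExpr, which kept 5 members, 3 and 2 were called in WT and 2 and 0 in Lat-/- cells, and DESeq2 called 3, 1, 2 and 0. With that filter 32.8%, 43.2%, 12.3% and 7.08% of all genes were called in either direction, in the same order. Ighm fell by 2.72 on the log2 scale at 4 h in WT (SE 0.16; SE 0.25 and adjusted p = 3.42e-08 with the filter) and by 1.51 in Lat-/- cells (SE 0.15; SE 0.24 and adjusted p = 0.000108 with the filter). At 20 h it was lower by 1.32 in WT (log2 fold change -1.32, SE 0.15; SE 0.24 and adjusted p = 7.22e-05 with the filter) and had a log2 fold change of -0.14 in Lat-/- cells (adjusted p = 0.694 by edgeR).

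Between Lat-/- and WT cells the question was whether loss of LAT went with another level or course of these genes. Lat was at 5.69 to 19.1 CPM in Lat-/- and at 92.2 to 351 CPM in WT libraries. At 0 h, 4 members were called lower and 0 higher (0.961% of all genes in either direction), namely Igha, Igkc, Igkv12-44 and Igkv2-109, all through WT 0 h library 3. The count was 2 with the replicate block, which the libraries' deviations followed, and 0 with the filter, by DESeq2 or without replicate 3. Ighm had a log2 fold change of 0.48 at 0 h (adjusted p = 0.0562 by edgeR).

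At 4 h, 2 members were called higher and 1 lower (11.7% of all genes in either direction), and at 20 h again 2 higher and 1 lower (24.4%). Ighm was higher in Lat-/- cells by 1.69 on the log2 scale at 4 h (SE 0.15, adjusted p = 1.65e-27 by edgeR; SE 0.24 and adjusted p = 1.26e-05 with the filter) and by 1.67 at 20 h (SE 0.15, adjusted p = 1.39e-27 by edgeR; SE 0.24 and adjusted p = 5.15e-06 with the filter). Ighj1 was higher by 3.04 at 20 h (SE 0.96, adjusted p = 0.00547 by edgeR; SE 0.94 and adjusted p = 0.00841 with the filter), which was lost without replicate 1 and, in the unfiltered fit, without replicate 3. The other calls, Igkv1-110 and Ighv1-49 at 4 h and Igkc at 20 h, rested on libraries 3. In the B cell list, 2 of 16 genes were called higher and 0 lower at 4 h and 3 higher and 1 lower at 20 h, and in the list for immunoglobulin transcription and diversification 0 and 2 of the 11 genes with a read were called higher and 4 and 4 lower. The part of other genes or cells in the Ighm difference was not tested.

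The difference between the genotypes in the response itself was tested as an interaction. At 4 h, 4 members had a higher (less negative or more positive) response in Lat-/- than in WT cells and 0 a lower one (8.71% of all genes in either direction), and at 20 h 2 had a higher and 0 a lower one (19.5%). With the filter, and by DESeq2, 1 member was called at each time, and with the filter it was Ighm. The filtered shares of all genes called in either direction were 16.7% at 4 h and 37.8% at 20 h. The difference in the Ighm response was 1.21 on the log2 scale at 4 h (SE 0.21, adjusted p = 1.86e-07 by edgeR; SE 0.33 and adjusted p = 0.0092 with the filter) and 1.19 at 20 h (SE 0.21, adjusted p = 1.06e-07 by edgeR; SE 0.33 and adjusted p = 0.00518 with the filter). Without replicate 2 the 4 h difference was 0.95, under 2-fold, and with the filter as well it was 0.92 (adjusted p = 0.149 by edgeR), and 0.99 at 20 h (adjusted p = 0.0789). Ighm in Lat-/- libraries was thus higher than in WT at both times in 3 of 3 libraries, while the size of the difference in response depended on library 2.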

How the data were processed

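RNA-seq of naive CD4+ T cells of mice was analysed in 36 libraries of the CD5/CD6 experiment and 18 of the LAT experiment, grouped by genotype and time as labelled. The authors made stranded mRNA libraries, sequenced single reads of 50 bases, and, by their processing notes and methods, used bcl2fastq (2.17.1.14), STAR and featureCounts on GRCm38. They deposited raw read counts per gene in 1 table per experiment, with neither normalization nor pooling. Annotation release, multimapped reads and strand setting are not given in the sources used here, so reads of overlapping or near-identical genes cannot be told apart. The tables were normalized apart and not tested together.

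CPM were computed from the counts and the library totals multiplied by edgeR's TMM factors, and the limits of 3 reads are on the same scale. The members and the lists of other genes were chosen with earlier results of these data known. Named genes were all constant, J and lambda members, the 8 IGHV and 8 IGKV members with most reads, up to 3 called members per direction with the largest fold in a comparison, the V gene with most reads in each library, and the 10 genes most like Igkc, of which 1 is not reported here. Further V genes (Igkv3-9, Igkv8-34 and those of the sorted cells) were named after their values were seen. Symbols came from GENCODE M21, which held 55144 of the 55385 gene IDs, and all 177 members had the same coordinates there.

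Differences were tested with edgeR (4.0.16, quasi-likelihood, TMM factors, all genes with at least 1 read, all groups of an experiment sharing 1 estimate of spread), with Benjamini-Hochberg adjustment over all genes in R (4.3.3). The alternatives were RLE factors, library totals, filterByExpr, DESeq2 (1.42.0), the compared groups alone, the replicate number as a block, no fold threshold, each replicate left out, and the doubtful 0 h libraries left out. Tested on simulated data for WT at 20 h against 0 h, edgeR recovered 199 of 200 changed genes and called 3 others among 31110. The simulated counts had the same dispersion for every gene, and the changed genes were taken from well-read ones. These figures thus do not cover members with few reads or a wide spread between libraries. Samples with the same replicate number were checked for shared deviations. Every pair's correlation was over 0.1, which took the numbers as pairs, for WT at 4 h against 0 h, for Cd5-/- against WT at 4 h and 20 h, Cd6-/- at 0 h and 4 h, Cd5-/-Cd6-/- at 0 h, 4 h and 20 h, and Lat-/- at 0 h. Other steps used Python (3.11.15), numpy (2.4.6), pandas (2.3.3), scipy (1.17.1) and matplotlib (3.10.9).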

Additional observations from a re-analysis of the deposited data

Results flagged for a closer look

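The responses of 6 member and time combinations differed between Lat-/- and WT sorted cells by the interaction test in edgeR (Lat-/- response minus WT response, log2). The difference was 1.21 for Ighm at 4 h and 1.19 for Ighm at 20 h. It was 3.34 for Igkc, 9.03 for Igha and 8.44 for Igkv4-57-1 at 4 h, and 7.76 for Ighv1-15 at 20 h. These 4 values rested on libraries 3, in which Igkc had 260 reads in WT at 0 h, Igha 272 reads in WT at 0 h and 40 in Lat-/- cells at 4 h, Igkv4-57-1 11 reads in WT at 0 h and 4 in Lat-/- cells at 4 h, and Ighv1-15 42 reads in WT at 0 h. Fitted values of genes without reads in a group set no bound. None of the 4 was called with the filter on low genes or without replicate 3.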

How the results depend on the processing

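Limits. The count of members called at 20 h in enriched cells was within 1.5 times of the printed one under every alternative run, whereas the 4 h count in WT cells and the counts for knockouts against WT were not. Low members have few reads, and 3 libraries a group leave single V genes to 1 library. Library totals instead of TMM factors moved the median of all genes by -0.21 at 4 h and -0.13 at 20 h (log2, mean of 4 genotypes). The causes of the changes below were not tested, beyond the fewer genes or libraries that an alternative holds by construction. Shares of all genes called under an alternative are printed above for some filtered comparisons only. The other counts thus show how calls depend on the setting and are not read as results about the members. Of the values of single members under all alternatives, 10689 kept their side of the threshold, 361 lost and 240 gained a call, and 4 reversed.

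Numbers of members called that moved were as follows. With the filter on low genes they were 43 for WT at 4 h in the CD5/CD6 experiment, 0 for Cd5-/- against WT at 0 h and at 4 h, 0 for Cd5-/-Cd6-/- at 4 h, and in the LAT experiment 3 and 2 for WT at 4 h and 20 h, 0 for Lat-/- at 20 h, 0 and 1 for Lat-/- against WT at 0 h and 4 h, and 1 and 1 for the differences in response. With DESeq2 they were 35, 0, 1 and 0 in the CD5/CD6 experiment, and 3, 1, 0, 0, 1, 1 and 1 in the LAT experiment, in the same order. With RLE factors they were 1 and 2 for Cd5-/- at 0 h and 4 h and 0 for Cd5-/-Cd6-/- at 4 h, and with library totals 0, 2 and 0. In the compared groups alone they were 15 and 10 for Cd5-/- at 0 h and 4 h, 4 and 0 for Cd5-/-Cd6-/- at 0 h and 4 h, and 0 for Lat-/- at 20 h against 0 h. With the replicate block they were 13 and 11 for Cd5-/- at 0 h and 4 h, 0 for Cd5-/-Cd6-/- at 4 h, 2 and 1 for Lat-/- against WT at 0 h and 4 h, and 1 for the difference at 20 h, and the block moved no other count by over 1.5 times.

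The following alternatives were chosen after seeing the data, except that leaving out the labelled libraries and leaving out a replicate without the filter were planned. Without WT 0 h library 3 the numbers were 20 for WT at 4 h and 2 and 15 for Cd5-/- at 0 h and 4 h, and with the filter as well 7, 0 and 0, with 53 for the 4 genotypes at 4 h and 0 for Cd5-/-Cd6-/- at 4 h. With both doubtful 0 h libraries left out, they were 40 and 21 for Cd5-/- and 2 and 1 for Cd6-/- at 0 h and 4 h, and with the filter as well 48 for WT at 4 h and 0, 0 and 0 for Cd5-/- at 0 h and 4 h and Cd5-/-Cd6-/- at 4 h. Leaving out replicates 1, 2 and 3 in turn, with and without the filter, gave 15 to 82 for WT at 4 h and 55 to 97 for the 4 genotypes at 4 h. For knockouts against WT at 0 h, 4 h and 20 h it gave 0 to 68 and 0 to 33 for Cd5-/- at the first times, 0 to 5, 0 to 12 and 0 to 2 for Cd6-/-, and 0 to 7, 0 to 17 and 0 to 1 for Cd5-/-Cd6-/- cells, of which those with the filter were all 0. In the LAT experiment it gave 2 to 10 and 1 to 6 for WT at 4 h and 20 h, 1 to 3 and 0 to 1 for Lat-/- cells, 0 to 4, 1 to 2 and 1 to 3 for Lat-/- against WT at 0 h, 4 h and 20 h, and 0 to 3 and 0 to 2 for the differences. In the fits without the filter that leave out a replicate, each gene's spread came wholly from the trend over all genes. Values that reversed (log2) were those of Ighe in WT at 4 h, -7.60 to 2.33 over the fits that leave out a replicate, Ighg2c in Cd5-/- against WT at 0 h, -3.17 to 1.13 over those fits and -2.98 without the labelled libraries, and Ighg1 in Cd5-/- against WT at 4 h, -2.57 to 1.08 over those fits.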
